A study of Mus musculus with 5 samples.

Results

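Platelet-derived growth factor (PDGF) signaling in mouse interscapular brown adipose tissue (iBAT) was described through its 6 genes, the ligands Pdgfa, Pdgfb, Pdgfc and Pdgfd and the receptors Pdgfra and Pdgfrb. They were taken by gene symbol, and 6 of the 32285 genes in each deposited matrix carry these names. Nuclei were first sorted into cell types by marker genes that do not include any PDGF gene, and the UMIs of each PDGF gene were then summed over the nuclei of each type. UMIs, or unique molecular identifiers, are counts of captured RNA molecules, and levels are given as CPM, the UMIs of a gene per 1000000 UMIs of all genes in the same nuclei.

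Single-nuclei RNA sequencing was done on 5 samples, with 1 library each. The first matrix holds a littermate control (WT) and a UCP1-STX4KO library from mice of 3 months, where floxed STX4 is deleted by a Cre driven from the Ucp1 promoter and therefore in brown adipocytes. The second matrix, called the aging matrix, holds libraries from C57BL/6J mice of 2, 12 and 24 months. All mice were on this background, and the methods name 4 male mice without dividing them among the libraries. Barcodes end in a number that separates the libraries, but no label connects it with a genotype or an age, so libraries are named by matrix and number and neither genotypes nor ages were compared. The tissue had been homogenized in a way meant to favor brown adipocyte nuclei, and the nuclei were sorted by flow cytometry, so each share of nuclei is a share after these steps.

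PDGF ligands are secreted dimers that bind receptor tyrosine kinases at the cell surface. PDGF-A and PDGF-B are released in active form, whereas PDGF-C and PDGF-D carry an N-terminal CUB domain that a protease must remove before they bind. PDGFRα marks fibroblasts and adipocyte progenitors in adipose tissue, and PDGFRβ marks pericytes and smooth muscle cells, the mural cells that endothelial PDGF-B recruits to vessels.

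Pdgfra lies on chromosome 5 from 75152292 to 75198215 on the plus strand of GRCm38, and Pdgfa lies on the same chromosome from 138976014 to 138997370 on the minus strand. Pdgfb occupies chromosome 15 from 79995874 to 80014977 on the minus strand. Pdgfc runs from 81036416 to 81214040 on chromosome 3 and Pdgfd from 6168584 to 6378850 on chromosome 9, both on the plus strand. No gene in the matrices overlaps a PDGF gene on its own strand. An annotated gene on the opposite strand overlaps each of Pdgfa (6330403L08Rik), Pdgfb (Gm41361), Pdgfc (Gm16000), Pdgfd (Ddi1) and Pdgfra (Gm42802), and the sources used here do not say whether strand was used in counting.

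Windows from the RefSeq promoter table of GRCm38.p6 were used for 4 of the 6 genes. The 250 bases before the annotated start are shown for the receptor gene Pdgfra and for Pdgfc and Pdgfd, the ligand genes of the CUB type, since these 3 genes had their highest levels in different cell types. Capitals mark TATAAA, searched on both strands, and the windows are chr5:75152001-75152250, chr3:81036166-81036415 and chr9:6168236-6168485, all on the plus strand.
Pdgfra: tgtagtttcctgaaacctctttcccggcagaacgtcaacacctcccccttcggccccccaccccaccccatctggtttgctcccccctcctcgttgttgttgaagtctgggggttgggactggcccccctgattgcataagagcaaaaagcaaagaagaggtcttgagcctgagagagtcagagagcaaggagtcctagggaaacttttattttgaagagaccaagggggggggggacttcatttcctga
Pdgfc: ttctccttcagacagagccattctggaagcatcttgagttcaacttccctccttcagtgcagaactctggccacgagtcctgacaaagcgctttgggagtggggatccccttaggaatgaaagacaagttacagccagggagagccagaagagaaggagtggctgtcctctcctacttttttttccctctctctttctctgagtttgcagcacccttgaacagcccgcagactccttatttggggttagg
Pdgfd: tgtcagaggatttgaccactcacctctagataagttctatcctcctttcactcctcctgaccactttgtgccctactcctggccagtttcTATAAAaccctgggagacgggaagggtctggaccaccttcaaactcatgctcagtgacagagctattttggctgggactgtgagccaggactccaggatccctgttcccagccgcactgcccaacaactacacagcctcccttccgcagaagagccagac
The Pdgfd window holds 1 TATAAA and the windows of Pdgfra and Pdgfc hold none, while 12.4% of the 32851 promoter windows of this length hold it on either strand. The GC box GGGCGG occurs in none of these 3 windows, and it occurs 1 and 2 times in the windows of the 2 Pdgfa starts in the table, against 32.7% of all windows with at least 1. The GC content was 54.4% for Pdgfra, 50.8% for Pdgfc and 53.6% for Pdgfd, close to the median of 52.4%, and 66.4% and 72.4% for Pdgfa.

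The WT/STX4KO matrix holds 20307 barcodes with 116053743 UMIs and the aging matrix 30000 barcodes with 54656055 UMIs. Nuclei with at least 200 UMIs and 100 genes numbered 20307 and 27842. The median depth per barcode ranged from 3284.5 to 5998 UMIs between the libraries of the first matrix and from 891 to 1719.5 between those of the second. Although the labels give brown adipocytes as the cell type, adipocyte nuclei made up 77.6% of the filtered nuclei in the WT/STX4KO matrix and 8.51% in the aging matrix, where endothelial nuclei made up 60.5%. Adipocyte markers stood at 1498 to 2595 CPM in the other types of the WT/STX4KO matrix, against 10141 CPM in adipocyte nuclei, and endothelial markers at 684 to 1762 CPM in the other types of the aging matrix, against 11733 CPM in endothelial nuclei. Free RNA that reaches droplets of other cells gives such levels too, and its part in the low values below was not tested. Any 2 libraries shared 23 to 45 barcodes, at most 0.45% of the smaller library. Stx4a, the gene targeted in the knockout, stood at 60.0 CPM (58.2 to 61.8) in adipocyte nuclei of library 1 of the WT/STX4KO matrix. In library 2 it stood at 50.8 CPM (48.3 to 53.5), and neither number is tied to a genotype. The paper reports a large loss of Stx4a mRNA, by RT-qPCR, in purified brown adipocytes of the knockout. A difference of that size was not seen between these libraries, and the reason was not tested.

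The PDGF genes differed in the cell types where they were highest, and for 5 of the 6 genes the leading type was the same in both matrices. Pdgfb and Pdgfd were highest in endothelial nuclei, Pdgfc in macrophage nuclei, Pdgfra in stromal nuclei (fibroblasts and progenitors) and Pdgfrb in pericyte nuclei. Pdgfa was highest in macrophage nuclei of the WT/STX4KO matrix and in smooth muscle nuclei of the aging matrix, a cell type with only 13 nuclei in the first matrix. A gene was called in a cell type where its CPM was at least 4 times that of all other gated nuclei in each library that had at least 50 nuclei of that type, and all 6 PDGF genes passed the minimum of 200 UMIs in both matrices.

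In the WT/STX4KO matrix, 8 of 42 pairs of PDGF gene and cell type were called, against 4.96% of all pairs of a tested gene and a cell type. Pdgfb and Pdgfd were called in endothelial nuclei, where 4.63% of 13129 genes were called. Pdgfa and Pdgfrb were called in pericyte nuclei (4.27% of genes), and Pdgfra and Pdgfrb in stromal nuclei (4.87% of genes). Pdgfc was called in macrophage nuclei, where 6.06% of genes were called, and Pdgfa in skeletal muscle nuclei, where 4.94% were called in the only library with enough of them. None of the 6 was called in adipocyte nuclei (1.77% of genes) or in T lymphocyte nuclei (8.19% of genes, 1 library). Some calls lay close to the limit of 4. The lowest library ratio was 4.46 for Pdgfa in pericyte nuclei, which rests on 13 and 14 UMIs. It was 4.38 for Pdgfrb in stromal, 4.38 for Pdgfa in skeletal muscle and 4.63 for Pdgfd in endothelial nuclei.

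In the aging matrix, 5 of 36 pairs were called, against 2.74% of all pairs. Pdgfb was called in endothelial nuclei (2.21% of 11554 genes), Pdgfrb in pericyte nuclei (2.22%), Pdgfa in smooth muscle nuclei (1.89%) and Pdgfra in stromal nuclei (2.78%). Pdgfc was called in adipocyte nuclei, where 3.52% of genes were called. Macrophage nuclei, with the highest Pdgfc level, numbered 24, 36 and 25 in the 3 libraries and entered no call. No PDGF gene was called in Schwann nuclei (3.8% of genes, 1 library). Pdgfrb in pericyte nuclei, Pdgfra in stromal nuclei and Pdgfb in endothelial nuclei were the pairs called in both matrices. In the aging matrix the lowest library ratio was 4.20 for Pdgfb in endothelial and 4.90 for Pdgfa in smooth muscle nuclei, close to the limit.

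**Figure D1:**
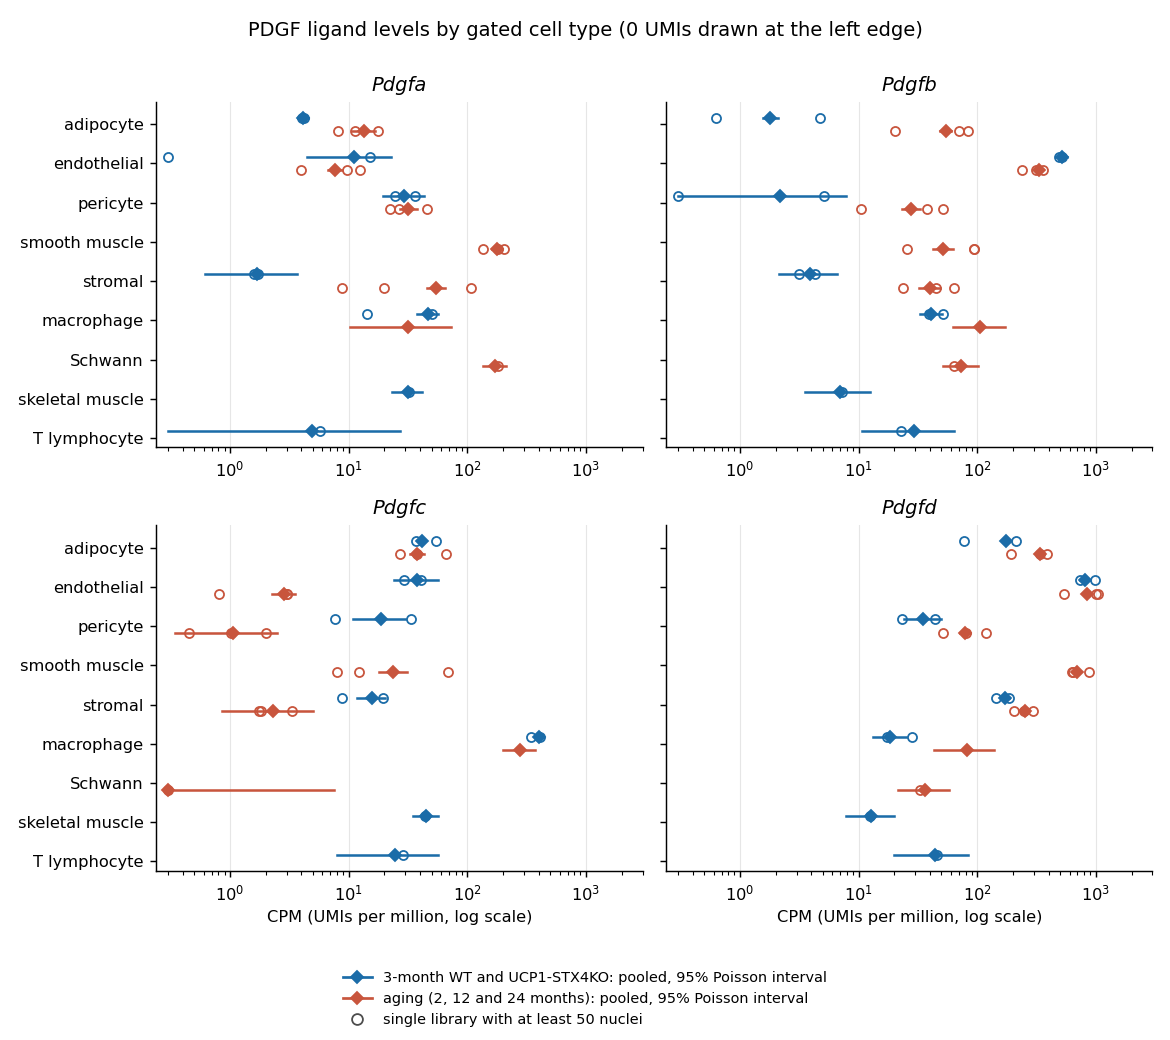
Level of each PDGF ligand gene (CPM on a log axis) in gated nuclei of each cell type with at least 50 nuclei, for the WT/STX4KO matrix in blue and the aging matrix in red. Diamonds are pooled values with 95% Poisson intervals and circles are single libraries, with counts of 0 drawn at the left edge. Endothelial nuclei lie to the right for Pdgfb and Pdgfd, macrophage nuclei for Pdgfc, and smooth muscle and Schwann nuclei for Pdgfa.

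Pdgfb, the ligand with which endothelial cells recruit mural cells, was highest in endothelial nuclei of all 5 libraries among the types with at least 50 nuclei. Its level there was 489 CPM (84 UMIs) in library 1 and 523 CPM (243 UMIs) in library 2 of the WT/STX4KO matrix. In the aging libraries it was 240, 315 and 356 CPM in libraries 1, 2 and 3. Adipocyte nuclei held 0.629 and 4.77 CPM in the first matrix and 20.1, 83.3 and 69.7 CPM in the second. The endothelial level therefore exceeded the adipocyte level in every library, without overlap within a matrix.

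Over pooled nuclei, the endothelial level of Pdgfb was 12.6 times that of macrophage nuclei, the next type in the WT/STX4KO matrix (95% interval 9.97 to 16.1). In the aging matrix it was 3.10 times that of macrophage nuclei (1.93 to 5.32), where Pdgfb was seen in 17 UMIs. Against all other gated nuclei the ratio was 181.5 in the WT/STX4KO matrix and 7.33 in the aging matrix. The former was 75.2 without library 1, 557 without library 2, 53.2 when counted per nucleus and 18.2 within the limits that the methods state, 200 to 2000 UMIs and 100 to 3000 genes. In the WT/STX4KO matrix 51.0% of the gated Pdgfb UMIs came from endothelial nuclei, which were 1.92% of the gated nuclei.

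Pdgfd, a ligand that acts mainly through PDGFRβ, was highest in endothelial nuclei as well, but it was spread over more cell types than Pdgfb. Endothelial nuclei held 978 and 741 CPM in the libraries of the WT/STX4KO matrix and 1007, 539 and 1049 CPM in those of the aging matrix. Smooth muscle nuclei, measured in the aging matrix only, held 643, 627 and 882 CPM. The order of these 2 types was not the same in all libraries: endothelial nuclei were higher in libraries 1 and 3, by 1.57 (1.45 to 1.69) and 1.19 times (1.08 to 1.31), and smooth muscle nuclei in library 2, by 1.16 times (1.02 to 1.32).

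Adipocyte nuclei followed with 214 and 76.7 CPM of Pdgfd in the WT/STX4KO matrix and 390, 342 and 194 CPM in the aging matrix. Stromal nuclei were close to them, at 145 and 185 CPM and at 294, 249 and 203 CPM. Adipocyte nuclei were above stromal nuclei in 3 libraries, below them in library 2 of the WT/STX4KO matrix by 2.41 times (2.17 to 2.68), and level in library 3 of the aging matrix, where the ratio of stromal to adipocyte was 1.05 (0.85 to 1.29). Pericyte nuclei were far lower, at 35.0 CPM in the first matrix and 79.0 CPM in the second, so that smooth muscle nuclei exceeded pericyte nuclei 8.76 times (7.82 to 9.83).

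Against all other gated nuclei, endothelial nuclei held 4.79 times the Pdgfd level in the WT/STX4KO matrix (4.37 to 5.22) and 2.95 times in the aging matrix (2.85 to 3.04). Without library 1 the former was 9.56, and counted per nucleus it was 1.4. Adipocyte nuclei of that matrix had a median depth of 5742 UMIs and endothelial nuclei a median of 1528 UMIs. In that matrix 93.4% of the gated Pdgfd UMIs came from adipocyte nuclei, which were 84.8% of gated nuclei, and 2.67% from endothelial nuclei. In the aging matrix 84.3% came from endothelial nuclei, which were 71.7% of gated nuclei. The cell type that supplied most Pdgfd UMIs thus differed between the matrices together with the mix of nuclei.

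**Figure D2:**
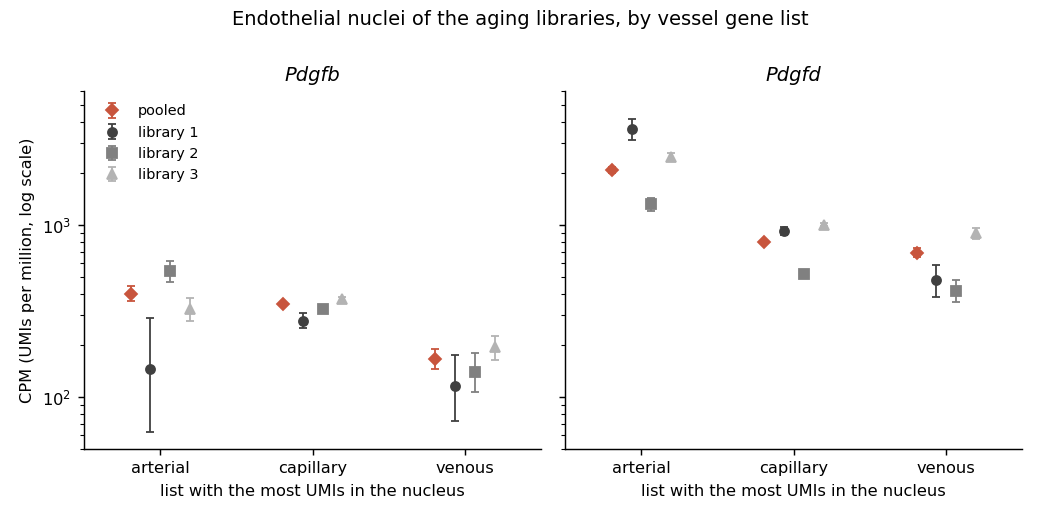
Pdgfb and Pdgfd levels (CPM on a log axis) in endothelial nuclei of the aging matrix, split by the vessel list with the most UMIs in the nucleus, with 95% Poisson intervals. Pdgfd is highest in nuclei of the arterial list in all 3 libraries, and Pdgfb is lowest in those of the venous list.

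Endothelial nuclei of the aging matrix were also split by genes typical of arteries (Sox17, Gja5, Hey1, Dll4, Gja4, Fbln5), capillaries (Gpihbp1, Rgcc, Car4, Cd300lg, Btnl9) and veins (Nr2f2, Vwf, Selp, Ackr1, Vcam1), lists that were chosen after the levels had been seen. Pdgfd stood at 2090 CPM (1998 to 2184) in the 459 nuclei of the arterial list, at 801 CPM in the 10951 of the capillary list and at 692 CPM in the 580 of the venous list. By library the arterial nuclei held 3619, 1323 and 2483 CPM, the capillary nuclei 929, 519 and 1006 CPM, and the venous nuclei 477, 414 and 897 CPM. The arterial level was above the others in all 3 libraries.

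The pooled order was the same for Pdgfb, but the libraries differed. Its level was 400 CPM (360 to 442) in arterial, 346 CPM in capillary and 167 CPM (146 to 190) in venous nuclei, and arterial nuclei were above capillary nuclei in library 2 only, with 542 against 325 CPM. Smooth muscle markers stood at 173, 140 and 170 CPM in the arterial, capillary and venous nuclei, against 7696 CPM in smooth muscle nuclei.

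Pdgfc, a ligand of the CUB type that binds PDGFRα, was highest in macrophage nuclei. These held 344 CPM (73 UMIs) and 413 CPM (825 UMIs) in libraries 1 and 2 of the WT/STX4KO matrix and 139, 210 and 459 CPM in the 3 aging libraries, from 5, 15 and 24 UMIs. Adipocyte nuclei held 36.8 and 54.3 CPM and 37.5, 27.0 and 66.7 CPM. In each library the macrophage level was above the adipocyte level.

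Pooled, the Pdgfc level of macrophage nuclei was 9.71 times that of adipocyte nuclei in the WT/STX4KO matrix (9.03 to 10.4) and 7.28 times in the aging matrix (5.15 to 10.1). The values in the aging matrix rest on 85 macrophage nuclei with 44 UMIs, and the ratio to all other nuclei, 33.6, was 21.9 without library 3. In the WT/STX4KO matrix the ratio to all other nuclei was 9.97, and it was 5.68 counted per nucleus and 4.73 within the stated limits.

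The adipocyte level of Pdgfc was nearly the same in both matrices, at 41.8 and 37.9 CPM, but the levels of the other types were not. In the aging matrix endothelial, stromal and pericyte nuclei held 2.85, 2.31 and 1.06 CPM. Schwann nuclei held 0 of 492473 UMIs, a depth at which 3 counts would be 6.09 CPM. In the WT/STX4KO matrix endothelial nuclei held 37.7 CPM, stromal nuclei 15.7 CPM and pericyte nuclei 18.6 CPM. Adipocyte nuclei exceeded endothelial nuclei 13.3 times (10.3 to 17.2) in the aging matrix and 1.11 times (0.744 to 1.73) in the WT/STX4KO matrix. Adipocyte markers in the endothelial nuclei of the latter stood at 2595 CPM, against 731 CPM in the aging matrix, and their part in these levels was not tested. Smooth muscle nuclei of the aging matrix held 23.9 CPM of Pdgfc, with 12.2, 8.04 and 68.8 CPM in libraries 1, 2 and 3.

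**Figure D3:**
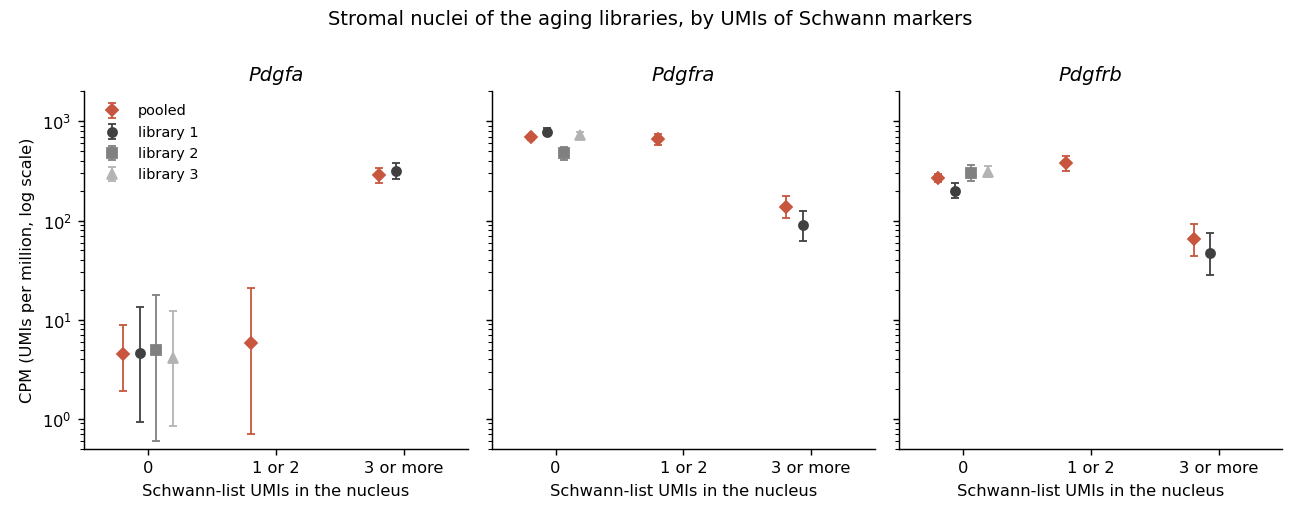
Levels of Pdgfa, Pdgfra and Pdgfrb (CPM on a log axis) in stromal nuclei of the aging matrix, split by the number of UMIs of the 7 Schwann markers in the nucleus, with 95% Poisson intervals, pooled and for each library with at least 50 such nuclei. Pdgfa is high and both receptors are low in nuclei with 3 or more Schwann-list UMIs.

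Pdgfa, the ligand that binds PDGFRα alone, had low levels in most types, and its highest levels were in smooth muscle and Schwann nuclei of the aging matrix and in macrophage, skeletal muscle and pericyte nuclei of the WT/STX4KO matrix, where macrophage nuclei did not pass the 4-fold call in both libraries. In the aging matrix smooth muscle nuclei held 181, 137 and 204 CPM in the 3 libraries, and Schwann nuclei held 183, 184 and 97.7 CPM from 66, 11 and 7 UMIs. The pooled levels of these 2 types, 179 and 171 CPM, did not differ beyond counting error (ratio 1.05, 0.827 to 1.34). Pericyte nuclei held 26.7, 22.2 and 45.8 CPM in the aging matrix and 24.8 and 35.9 CPM in the WT/STX4KO matrix. Smooth muscle nuclei were above pericyte nuclei in each aging library, and over all 3 by 5.62 times (4.64 to 6.82).

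Stromal nuclei of the aging matrix held 108, 20.03 and 8.82 CPM of Pdgfa in libraries 1, 2 and 3, a spread larger than that of any other type with at least 50 nuclei in each library. The level moved with Schwann markers in the same nuclei. In library 1, the 173 stromal nuclei with 3 or more UMIs of the Schwann list held 316.5 CPM of Pdgfa (120 UMIs), and the 309 without such a UMI held 4.57 CPM (3 UMIs). Stromal nuclei without a Schwann-list UMI held 4.57, 4.93 and 4.15 CPM in the 3 libraries, from too few UMIs to show whether these levels differ. Pooled, such nuclei held 4.48 CPM (1.93 to 8.825) in the aging matrix and 1.08 CPM (0.222 to 3.15) in the WT/STX4KO matrix. The split was added after the levels had been seen.

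The receptors went the other way in the same nuclei. In library 1 Pdgfra stood at 89.7 CPM in stromal nuclei with 3 or more Schwann-list UMIs and at 787 CPM in those with none, and Pdgfrb at 47.5 and 199 CPM. Nuclei called Schwann carried stromal markers in turn, at 4502 CPM against 9868 CPM in stromal nuclei, while Pdgfra in them was 2.03 CPM, from 1 UMI. Whether these nuclei hold RNA of a pair of cells or of 1 cell was not tested.

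In the WT/STX4KO matrix, Pdgfa stood at 46.6 CPM in macrophage nuclei (38.0 to 56.5), 31.4 CPM in skeletal muscle nuclei and 29.5 CPM in pericyte nuclei, and at 4.11 CPM in adipocyte nuclei. The macrophage value came almost wholly from library 2, with 100 UMIs and 50.02 CPM, against 3 UMIs and 14.1 CPM in library 1. Its ratio to all other gated nuclei was 9.88, but 3.40 without library 2 (0.697 to 10.0), 5.64 counted per nucleus and 1.66 within the stated limits (0.583 to 3.86). Macrophage and pericyte nuclei of library 2 did not differ beyond counting error (ratio 1.39, 0.793 to 2.64).

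Within library 2, macrophage nuclei were parted by genes typical of lipid-associated macrophages (Gpnmb, Atp6v0d2, Mmp12, Lgals3, Trem2), again after the levels had been seen. The 395 nuclei with 3 or more UMIs of these genes held 60.1 CPM of Pdgfa (97 UMIs), and the other 174 held 7.78 CPM (3 UMIs). Pdgfc differed less between them, with 435 CPM (404 to 469) and 319 CPM (265 to 380). The former nuclei were deeper, with a median of 3619 UMIs against 2063.5. The 306 skeletal muscle nuclei of the library held 35.4 CPM of Pdgfa where no UMI of the macrophage or lipid-associated lists was seen and 29.5 CPM where at least 1 was.

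**Figure D4:**
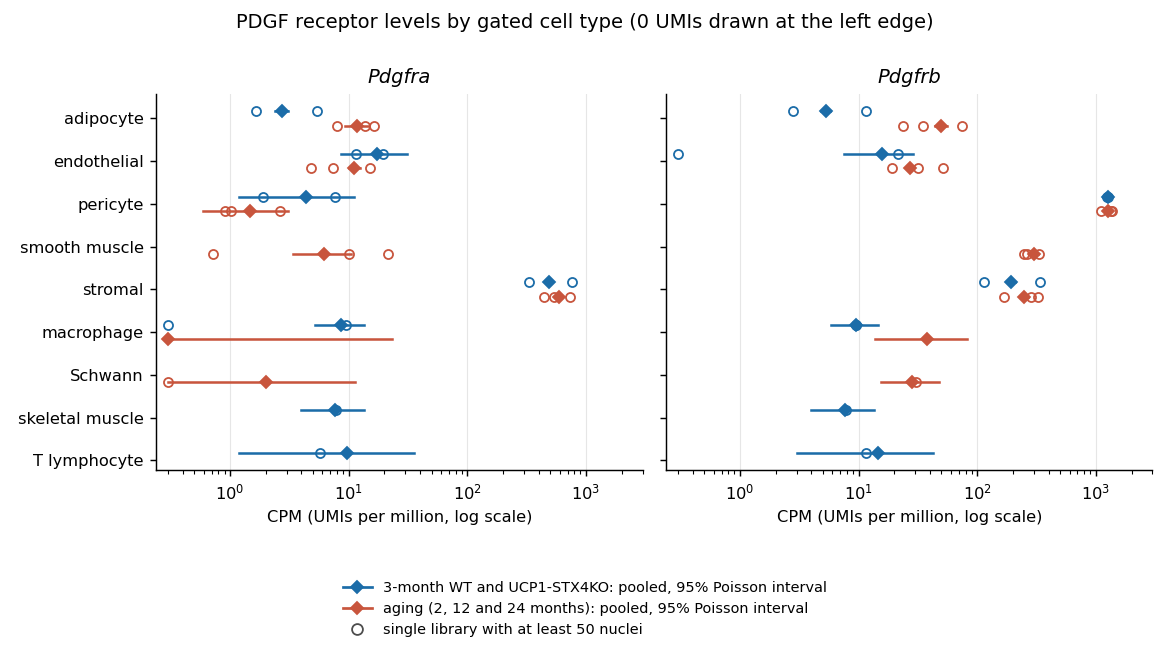
Level of Pdgfra and Pdgfrb (CPM on a log axis) in gated nuclei of each cell type with at least 50 nuclei, drawn as for the ligands. Pdgfra stands out in stromal nuclei alone, and Pdgfrb is highest in pericyte nuclei, with smooth muscle and stromal nuclei next.

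Pdgfra, the receptor that marks fibroblasts and adipocyte progenitors, was high in stromal nuclei and low elsewhere. Stromal nuclei held 759 and 335 CPM in libraries 1 and 2 of the WT/STX4KO matrix and 542, 446 and 732 CPM in the aging libraries. The next type in the pooled matrices held 17.3 CPM (endothelial, 11 UMIs) and 11.8 CPM (adipocyte, 71 UMIs). Stromal nuclei lay above every other type in all 5 libraries.

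Pooled stromal levels of Pdgfra were 178 times those of adipocyte nuclei in the WT/STX4KO matrix (157 to 203) and 49.7 times in the aging matrix (39.1 to 63.9). Against pericyte nuclei, where 4 and 7 UMIs were seen, the ratios were 111 (43.1 to 406) and 396 (191.5 to 986). Stromal nuclei supplied 84.1% and 78.2% of the gated Pdgfra UMIs while making up 5.51% and 4.61% of gated nuclei. The ratio to all other gated nuclei was 160 and 59.9, and the former was 56.0 without library 1, 453 without library 2, 90.9 counted per nucleus and 14.6 within the stated limits.

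Pdgfrb, the receptor of mural cells (chromosome 18, 61045150 to 61085061, plus strand), was highest in pericyte nuclei and varied little there. Its level was 1274 and 1247 CPM in the WT/STX4KO libraries and 1367, 1347 and 1101 CPM in the aging libraries. Smooth muscle nuclei held 332, 246 and 265 CPM. Stromal nuclei held 338 and 114 CPM in the first matrix and 167, 284 and 324 CPM in the second. The pericyte level was above the stromal level in all 5 libraries and above the smooth muscle level in the 3 aging libraries, without overlap.

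Pooled, pericyte nuclei exceeded stromal nuclei 6.55 times in the WT/STX4KO matrix (5.96 to 7.21) and 5.18 times in the aging matrix (4.78 to 5.63), and smooth muscle nuclei 4.22 times (3.90 to 4.57). Smooth muscle and stromal nuclei did not keep an order: smooth muscle was 1.99 times higher in aging library 1 (1.68 to 2.37), while in libraries 2 and 3 stromal nuclei were 1.15 (0.885 to 1.51) and 1.22 times higher (0.992 to 1.51). The stromal nuclei of aging library 1 include those with Schwann-list UMIs. Stromal nuclei of that library without such a UMI, at the Pdgfrb level given above, were also below its smooth muscle nuclei. Against all other gated nuclei the pericyte ratio was 108 in the WT/STX4KO matrix and 21.6 in the aging matrix. The former was 68.1 without library 1, 48.7 counted per nucleus and 12.9 within the stated limits, where pericyte nuclei numbered 65 instead of 335. Endothelial and adipocyte nuclei held 27.0 and 49.4 CPM in the aging matrix and 15.7 and 5.31 CPM in the WT/STX4KO matrix.

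The share of nuclei with at least 1 receptor UMI depends on depth, so nuclei were also thinned to 1000 UMIs each, leaving out shallower ones. A Pdgfrb UMI was seen in 90.7% of pericyte nuclei in the WT/STX4KO matrix (87.1 to 93.6) and in 87.8% in the aging matrix (86.2 to 89.3). After thinning the shares were 69.4% of 327 nuclei and 68.3% of 1682, with 8 and 121 nuclei left out. In stromal nuclei a Pdgfrb UMI was seen in 36.6% and 34.9% before thinning and in 17.0% and 20.3% after it, and in smooth muscle nuclei in 41.5% and 25.1%.

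For Pdgfra, 59.0% and 53.3% of stromal nuclei had a UMI, and 30.7% (27.9 to 33.6) and 35.8% (32.9 to 38.9) after thinning. In the other types the thinned shares ran from 0.306% in pericyte to 1.905% in T lymphocyte nuclei of the WT/STX4KO matrix, with 1.63% in endothelial nuclei, and up to 1.29% in endothelial nuclei of the aging matrix. Before thinning, pericyte nuclei had 0.896% and 0.388%. Their median depth was 2584 and 2194 UMIs, against 3187 and 2061 UMIs in stromal nuclei. The background of Pdgfrb in endothelial nuclei, with medians of 1528 and 1560 UMIs, was 1.63% and 2.37% after thinning.

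In thinned stromal nuclei, the receptors were counted together. Pdgfrb was seen in 30.4% (22.8 to 38.9) of nuclei with a Pdgfra UMI and in 18.6% (13.3 to 24.7) of those without in library 1 of the WT/STX4KO matrix. The shares were 9.49% and 11.2% in library 2, and 15.4% and 11.04%, 23.4% and 24.8%, and 28.3% and 22.0% in the 3 aging libraries. Intervals overlapped in all 5 libraries, which does not show equal shares, and 3 of the 5 had the higher share in nuclei with Pdgfra. Pooled, the shares were 24.92% (20.2 to 30.13) and 13.47% (11.02 to 16.23) in the WT/STX4KO matrix, without overlap. In the aging matrix they were 25% (20.63 to 29.78) and 17.64% (14.79 to 20.78). Stromal levels of both receptors differed between the libraries, and the part of this in the pooled shares was not tested.

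Stromal nuclei were further split by the genes with the more UMIs of a list around Dpp4 (with Pi16, Sema3c, Anxa3 and Cd55), typical of interstitial progenitors, and a list around Col15a1 (with Cxcl14, Gdf10, Icam1 and Bmper). Pdgfra stood at 503 CPM in the 882 nuclei of the Col15a1 list and at 270 CPM in the 52 of the Dpp4 list in the WT/STX4KO matrix, and at 691 and 312 CPM in 716 and 54 nuclei of the aging matrix. Pdgfrb had the same order, with 198 and 92.2 CPM and with 281 and 76.2 CPM. The ligand Pdgfd had the opposite order, with 153 and 497 CPM in the first matrix and 242 and 416 CPM in the second. These directions were the same in both matrices, but no single library held 50 nuclei of the Dpp4 list, so they have no check within libraries.

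**Figure D5:**
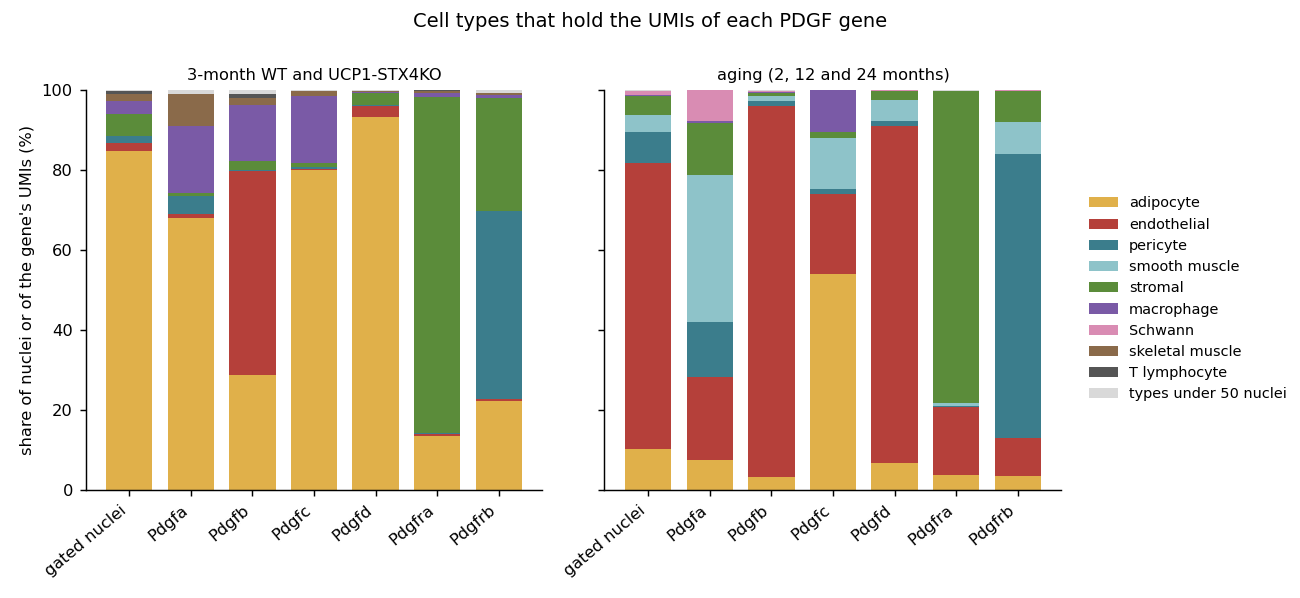
Share of gated nuclei (first bar) and of the UMIs of each PDGF gene (other bars) held by each cell type, in percent, for the WT/STX4KO matrix on the left and the aging matrix on the right. Adipocyte nuclei hold 93.4% of Pdgfd UMIs on the left and endothelial nuclei 84.3% on the right, while stromal nuclei hold most Pdgfra UMIs in both.

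After thinning, Pdgfb was seen in 36.3% (30.9 to 41.9) and 26.6% (25.9 to 27.3) of endothelial nuclei, against 0.397% and 4.33% of stromal nuclei. Pdgfd was seen in 36.9% and 41.7% of endothelial nuclei, 42.3% of smooth muscle nuclei and 13.7% and 25.5% of adipocyte nuclei. Pdgfc was seen in 26.7% and 18.7% of macrophage nuclei and in 3.95% and 2.73% of adipocyte nuclei, against 1.39% and 0.0984% of stromal nuclei. Pdgfa was seen in 15.99% of smooth muscle, 15.0% of Schwann and 2.85% of pericyte nuclei of the aging matrix. Among thinned endothelial nuclei, Pdgfd was seen in 38.7% of those with a Pdgfb UMI and 35.9% of those without in the WT/STX4KO matrix, and in 43.0% and 41.2% in the aging matrix.

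The genes around the ligands and receptors were taken from 5 lists with 31 genes. In the WT/STX4KO matrix 8 of the 25 genes with at least 200 UMIs were called in at least 1 cell type, where 25.2% of all tested genes were, and the 8 include the macrophage marker Csf1r. The aging matrix gave 4 of 26, all in Schwann nuclei of the only library with enough of them, where 15.5% of all tested genes were called in at least 1 type. Of the 6 genes of ligand processing, 3 and 5 could be tested, and 1 was called, Plat, the tissue plasminogen activator that cleaves PDGF-C. Plat stood at 144 CPM in Schwann nuclei of the aging matrix and at 49.3, 26.5 and 4.00 CPM in stromal, endothelial and adipocyte nuclei. Plau, the urokinase that cleaves PDGF-D, stood at 31.2 CPM in stromal nuclei of that matrix. Macrophage nuclei held 25.1 CPM of it from only 4 UMIs, and the other types at most 4.93 CPM. Furin lay between 22.5 and 50.8 CPM in all types of the aging matrix.

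Of the binding proteins and co-receptors, Sparc, a matrix protein that binds PDGF-B, was called in pericyte and endothelial nuclei of the WT/STX4KO matrix, with 813 and 434 CPM. In the aging matrix it stood at 2833 CPM in Schwann nuclei, where it was called, and at 1279 CPM in stromal and 1128 CPM in pericyte nuclei. Pdgfrl, a receptor-like gene without a kinase domain, was called in stromal nuclei of the first matrix at 15.4 CPM, with at most 2.56 CPM in the other types. It stood at 25.0 CPM in stromal nuclei of the aging matrix, where its 199 UMIs missed the minimum. Nrp1, a co-receptor, was highest in endothelial nuclei of both matrices, at 1240 and 1661 CPM, and was not called.

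Among the 11 signal relay genes, Src was called in pericyte nuclei, Grb2 in macrophage nuclei and Plcg1 in T lymphocyte nuclei of the WT/STX4KO matrix, and Src in Schwann nuclei of the aging matrix. Src stood at 26.2 and 38.9 CPM in pericyte nuclei of the 2 matrices at 21.3 and 28.1 CPM in stromal nuclei, at 33.5 CPM in macrophage nuclei of the first matrix (74 UMIs) and at 64.98 CPM in Schwann nuclei of the second (32 UMIs). Ptprj, a phosphatase that acts on PDGF receptors, was called in macrophage and T lymphocyte nuclei of the first matrix and in Schwann nuclei of the second, with 846, 429 and 768 CPM, and Cbl, a ubiquitin ligase, was called in macrophage nuclei of the first. Macrophage nuclei of the aging matrix held 1624 CPM of Ptprj (259 UMIs) and entered no call, since no library had 50 of them. Csf1r, a related receptor, is itself one of the macrophage markers, so its call there is no result.

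Patterns over cell types were compared across 28 pools, each a cell type in 1 library with at least 50 nuclei, by Pearson's r of log2(CPM + 1) among 10689 genes. The gate markers and the PDGF genes were left out of the ranking of nearest genes. Other genes typical of the same cell types stayed in it, so a high r can reflect a shared cell type. The pools of a library share its depth and free RNA, so r is a description without a test. Nearest to Pdgfrb were Agtr1a (r = 0.971), an angiotensin II receptor, Mrvi1 (0.942) and Lin7a (0.942). Pdgfra was nearest to Cyp1b1 (0.939), Itga11 (0.938), an integrin that binds collagen, and Tmeff2 (0.924). Pdgfb was nearest to Klf2 (0.936), a transcription factor that responds to blood flow, Cd93 (0.934) and Ets2 (0.922), and Pdgfd to Arhgap29 (0.915), Epha4 (0.855) and Ctif (0.853). Pdgfc and Pdgfa had lower maxima, with Slc16a10 (0.828), Ptk2b (0.819) and Ap1b1 (0.816) for the former and Fbxl2 (0.790), Mamdc2 (0.789) and Slc7a2 (0.788) for the latter. Among the PDGF genes themselves, r was highest between Pdgfb and Pdgfd (0.57) and lowest between Pdgfc and Pdgfrb (-0.50). Between the receptors it was 0.14.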

How the data were processed

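Levels of 6 PDGF genes were taken from single-nuclei RNA sequencing (10x Genomics Single Cell 3′ v3.1) of iBAT nuclei. The values are raw UMI counts as deposited. The authors made these counts by alignment to mm10 and UMI collapsing in Cell Ranger 6.1.2, and used Seurat 4.1.0 later. The annotation release, and whether intronic reads were counted, are not given in the sources used here. There is 1 library per condition, and each matrix was treated as 1 pooled sample, so no p-value was computed. Libraries were parted by barcode suffix.

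Nuclei with at least 200 UMIs and 100 genes were kept. The upper limits the methods state (2000 UMIs, 3000 genes) were an alternative. Nuclei were gated with 14 lists of 102 markers. A list's share of a nucleus's UMIs was divided by its median share among nuclei with at least 4 of its markers. A nucleus passed with at least 3 markers and a score of at least 0.33, and took the type with the highest score. Nuclei whose second score was over 0.5 of the first were left out, which also stood in for a doublet caller. Types with at least 50 nuclei were used. The thresholds were set on marker UMIs. The members, lists and rule for named genes were chosen with earlier results of these data known. Named were the members, their pathway lists, the markers and, for each member, the 3 genes with the highest correlation.

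Counts have exact Poisson, CPM ratios exact conditional binomial and shares exact Clopper-Pearson intervals, all at 95% and for counting error only. Genes needed 200 UMIs in the gated nuclei to be called at 4-fold. The calling was tried on simulated counts of the WT/STX4KO matrix, with some genes raised well beyond 4-fold and the rest equal. Free RNA and mixed nuclei were not simulated, so errors of the calls near 4-fold were not tested. Scripts used pandas 2.3.3, scipy 1.17.1, numpy 2.4.6 and matplotlib 3.10.9 under Python 3.11.15. Gene positions are from GENCODE on GRCm38 by Ensembl identifier, and promoters from RefSeq. Alternatives were a stricter gate, nuclei past several gates kept, the stated limits, UMIs per nucleus, libraries weighted equally or left out, other minima and folds, and thinning.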

Additional observations from a re-analysis of the deposited data

Results flagged for a closer look

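PDGF gene signals were also seen in nuclei and shallow barcodes that entered no comparison. In library 1 of the aging matrix, the 1376 nuclei that passed no gate held 597.8 CPM of Pdgfrb (634 UMIs), with Pdgfra at 14.1 CPM, and their median depth was 599.5 UMIs. The 2158 barcodes of the same library below the limits of depth, with a median of 130 UMIs, held 185.7 CPM of Pdgfrb (56 UMIs). The methods state that the cell number was forced to 10000, which is the number of barcodes in this library. Whether the shallow barcodes held nuclei was not tested.

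In library 2 of the WT/STX4KO matrix, the 1177 nuclei that passed no gate held 49.41 CPM of Pdgfa (133 UMIs), close to the 50.02 CPM of macrophage nuclei there. Of these UMIs, 112 lay in the 378 nuclei with 3 or more UMIs of the lipid-associated macrophage genes (113.5 CPM), and the other 799 nuclei held 12.3 CPM.

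In aging library 1, 372 nuclei were left out because they passed both the Schwann and the stromal gate with close scores. They held 262.1 CPM of Pdgfa (268 UMIs), with Pdgfra at 2.93 CPM and Pdgfb at 78.2 CPM.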

How the results depend on the processing

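The 12 ratios of a PDGF gene's leading cell type to all other gated nuclei were recomputed under 89 alternatives, of which 22 moved the ratio by over 1.5 times. The type had been chosen for its high level, so a ratio above 1 says little, and for Pdgfa in macrophage nuclei the intervals of 2 alternatives, 0.583 to 3.86 and 0.697 to 10.0, included 1. Of 115 alternatives in all, 42 left a value within its counting interval, or a count within 1.5 times. Counted as UMIs per nucleus, the ratios that moved were 5.64 for Pdgfa, 53.2 for Pdgfb, 5.68 for Pdgfc, 1.4 for Pdgfd, 90.9 for Pdgfra and 48.7 for Pdgfrb in the WT/STX4KO matrix, and 5.29 for Pdgfb, 2.13 for Pdgfd, 74 for Pdgfra and 29.6 for Pdgfrb in the aging matrix. With libraries weighted equally, the ratios that moved were 5.36 for Pdgfa, 8.79 for Pdgfc and 6.66 for Pdgfd in the WT/STX4KO matrix, and 6.69 for Pdgfb, 67.7 for Pdgfra and 20.4 for Pdgfrb in the aging matrix. With nuclei past several gates kept, the ratios that moved were 152 for Pdgfb, 117 for Pdgfra and 88.8 for Pdgfrb in the WT/STX4KO matrix, and 7.87 for Pdgfa, 5.81 for Pdgfb, 2.84 for Pdgfd, 38.2 for Pdgfra and 16.7 for Pdgfrb in the aging matrix. Within the stated limits of UMIs and genes, the ratios that moved were 1.66 for Pdgfa, 18.2 for Pdgfb, 4.73 for Pdgfc, 7.3 for Pdgfd, 14.6 for Pdgfra and 12.9 for Pdgfrb in the WT/STX4KO matrix, and 15.9 for Pdgfa, 5.47 for Pdgfb, 3.15 for Pdgfd, 49.3 for Pdgfra and 27.2 for Pdgfrb in the aging matrix. These limits left few and shallow nuclei in the WT/STX4KO matrix. Macrophage nuclei numbered 100 instead of 637, endothelial 168 instead of 357, stromal 131 instead of 1025 and pericyte 65 instead of 335. The stricter gate moved only the ratio of Pdgfa in macrophage nuclei of the WT/STX4KO matrix, to 7.18. Leaving out each library of the WT/STX4KO matrix in turn gave 3.4 to 8.45 for Pdgfa, 75.2 to 557 for Pdgfb, 8.11 to 9.53 for Pdgfc, 4.63 to 9.56 for Pdgfd, 56 to 453 for Pdgfra and 68.1 to 149.7 for Pdgfrb. Leaving out each library of the aging matrix in turn gave 9.09 to 16.8 for Pdgfa, 5.07 to 10.2 for Pdgfb, 21.9 to 43.4 for Pdgfc, 2.08 to 3.66 for Pdgfd, 55.8 to 76.2 for Pdgfra and 18.8 to 27.4 for Pdgfrb. Thinning moved the share of stromal nuclei with Pdgfra to 30.7% and 35.8%, with Pdgfrb to 17% and 20.3%, and the Pdgfrb share of pericyte nuclei to 69.4% and 68.3% and of smooth muscle nuclei to 25.1%. At 2-fold, 10 and 6 pairs of PDGF gene and cell type were called in place of 8 and 5, and 11.8% and 7.43% of all pairs. Minima of 50 UMIs or 1 UMI left the counts at 8 and 5, and no fold above 4 was tried. The cause of these shifts was not tested. Equal weighting gave no value for Pdgfc in the aging matrix, where no library held 50 macrophage nuclei. The splits by Schwann, vessel and lipid-associated macrophage genes were chosen after seeing the data. No paired analysis was possible because each condition has 1 library and no test was made. Depth limits the Pdgfc values of aging macrophage nuclei and every level of a few UMIs, and the absence of replicates limits all values to these libraries.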

Other observations

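Nuclei that passed a pair of gates were left out of the levels above. The 166 nuclei of the aging matrix past the endothelial and pericyte gates held 695 CPM of Pdgfrb and 123 CPM of Pdgfb, and the 117 past the endothelial and stromal gates held 385 CPM of Pdgfra and 172 CPM of Pdgfb. In the 64 nuclei past the pericyte and smooth muscle gates, Pdgfrb stood at 701 CPM, between the 1278 and 303 CPM of the single types, and Pdgfd at 241 CPM, between 79.0 and 692 CPM. The 389 nuclei past the Schwann and stromal gates held 253 CPM of Pdgfa but 2.77 CPM of Pdgfra, from 3 UMIs, against 588 CPM in stromal nuclei.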
